A study of Arabidopsis thaliana with 24 samples.

Results

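The introns described here are those that every isoform of their gene splices out in the annotation the authors used, and that nevertheless had reads crossing an exon-intron boundary. They were taken from the authors' 2 tables of changed splicing events in Arabidopsis thaliana seedlings, as rows of the intron kind in loci with no row for an alternative splice site or an annotated retained intron, and 7 named loci were left out. This gave 230 introns in 220 loci, of 517 distinct listed events in all. The comparison of EMS27 with MLB held 137 of them among its 325 events, the comparison of rrc1-689 with Col-0 held 138 among its 328, and 45 stood in both. Every one of the 230 has the coordinates of an intron in the TAIR10.1 annotation. There, 216 had no exon of their own locus lying over them in any isoform, while 14 did, among them DRM3, IAA14, AT4G16670 and alpha-ADR.

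All 4 lines have the Col-0 ecotype background and were sampled as whole seedlings after 60 h of red light at 19 µmol per m2 and s, with 3 libraries per group. Before that, seeds had 2 days of cold and 6 h of white light. Col-0 is the wild type. MLB lacks its own phytochrome B, the red light receptor, and makes it instead from the ML1 promoter, so that the receptor is limited to epidermal cells in which ML1 is active. EMS27 is an rrc1 mutant compared with MLB, and rrc1-689 is an rrc1 mutant compared with Col-0, so that each comparison rests on 1 mutant line. A temperature of 4 °C is noted in the labels for every light and dark stage. Nothing states that replicate libraries were grown apart, so each p-value reflects the scatter among libraries, part of which may be technical. Whole seedlings mix all organs, so a change of splicing within cells and a change in the mix of cells cannot be told apart. The dark libraries gave no event counts. Only those of MLB enter here, through the authors' gene fold changes of red light over darkness. No gene level per library was at hand to check the labelled tissue.

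An intron is removed after the spliceosome recognises its 5' splice site (the donor, nearly always GT), a branch point and its 3' splice site (the acceptor, nearly always AG). RRC1 is an SR-like splicing factor, named for reduced red light responses of its mutants in phytochrome B signalling. In plants, retention of a whole intron is the most common form of alternative splicing, and use of another acceptor or donor removes a shorter or longer stretch.

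Each event came with 3 read counts per library. These were the reads crossing from the upstream exon into the intron, the reads crossing from the intron into the downstream exon, and the exclusion reads that join both exons. The level is the share of boundary reads, with exclusion reads counted doubly because there are 2 boundaries. A library held 24482 to 28447 reads over all listed events in MLB and EMS27 and 34004 to 38559 in Col-0 and rrc1-689, of which 10362 to 13298 fell on the introns described here. The median intron had 35 to 50 reads per library, so single introns of low level are imprecise. Both tables list only events whose fraction differed by over 5 percentage points and whose own reads changed at an FDR below 0.05 in the same libraries. A difference in this contrast was thus a condition of being listed. The counts of calls and the p-values of each comparison below are descriptions of listed introns.

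The splice sites shown first are those of the 3 largest rises and the 3 largest falls among named introns with reads over both boundaries. Introns were named for a large change only with a mean of at least 20 reads per library. Larger changes in introns with fewer reads can therefore be missing here. Capitals mark the first and last bases of the intron, on the strand of the gene, with 3 exon bases on the outer side. The letters come from RefSeq, build TAIR10.1.
AT1G69030 intron I004, donor: aagGTagat
AT1G69030 intron I004, acceptor: gcattttgtgtatgttgcAGcaa
AT5G24060 intron I001, donor: aggGTatgt
AT5G24060 intron I001, acceptor: ctgataactctgtgttgcAGgca
AT3G55920 intron I007, donor: cagGTtaat
AT3G55920 intron I007, acceptor: tcaattttggcttcttgtAGatc
AT1G67300 intron I008, donor: gagGTatgt
AT1G67300 intron I008, acceptor: ttcacttgttccttttgcAGttg
alpha-ADR intron I001, donor: gggGTaaga
alpha-ADR intron I001, acceptor: ggggtctttttttgcgccAGcct
AT1G30590 intron I011, donor: ctgGTacac
AT1G30590 intron I011, acceptor: ttgttgtttctcatcatgAGgcc

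All 6 lie on the minus strand. AT1G69030 I004 is at chr1:25948485-25948615, AT5G24060 I001 at chr5:8130378-8130482 and AT3G55920 I007 at chr3:20744878-20744968. AT1G67300 I008 is at chr1:25194779-25194892, alpha-ADR I001 at chr5:7579517-7579833 and AT1G30590 I011 at chr1:10838784-10838876. The reference sequence at both ends of each was GT and AG, in the 3 introns that rose and in the 3 that fell.

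Most of these introns had a higher level, that is a higher share of boundary reads, in the mutants, which is not by itself retention of the whole intron. In the deposited fractions, 93 of the 137 introns were higher in EMS27 than in MLB and 44 were lower. Likewise 101 of the 138 were higher in rrc1-689 than in Col-0 and 37 were lower. The limma test with adjustment over all listed events called 83 introns higher and 39 lower in EMS27, where 58.2% of all listed events were called higher and 31.4% lower. It called 90 higher and 32 lower in rrc1-689, where 63.4% of all listed events were called higher and 25.3% lower. As a share of the introns, 60.6% were called higher in EMS27 and 65.2% in rrc1-689, which is near the background of their tables. In EMS27 the 3 libraries lay wholly above MLB for 82 introns and wholly below for 38, against 57.5% and 31.7% of all listed events. In rrc1-689 they lay above Col-0 for 90 introns and below for 34, against 65.9% and 26.5% of all listed events. With rises and falls together, the median difference in level was 7.49 percentage points over the 137 introns of EMS27 and 7.53 over the 138 of rrc1-689. Over all listed events it was 7.49 in EMS27 and 8.4 in rrc1-689. By listed direction, the medians of the introns were 11.1 for higher and -14.2 for lower in EMS27, and 9.54 and -11.5 in rrc1-689.

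The starting levels were low. The median level was 4.81% in MLB and 4.25% in Col-0, and 69 and 70 introns, respectively, were under 5% in their control. In MLB 20 introns had no boundary read in any library, and in Col-0 15 had none. At the other end, 1 intron in EMS27 and 2 in rrc1-689 had no exclusion read left in any library. In the authors' deposited table the reads within the intron itself had a median log2 fold change of 2.40 in EMS27 for introns listed higher and -1.93 for introns listed lower. The authors' deposited table gave medians of 2.04 and -2.20 for rrc1-689. An FDR below 0.05 for this change was a condition of being listed, so these medians are no separate evidence for the levels. The exceptions in sign were GOX2 I009 and AT1G22850 I003, both lower in level in EMS27. AT2G30600 I010 was listed higher in rrc1-689 from summed reads, although its mean level was 51.3 ± 42.2% (SD, n = 3) in Col-0 and 51.1 ± 0.876% (SD, n = 3) in rrc1-689, because 1 Col-0 library had no exclusion read.

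The boundary reads of rising introns lay mostly on one side. Introns were classed by where their boundary reads fell over the 6 libraries of a comparison: at least 80% at the 3' boundary, at most 20% there, or between these limits. The limits were set after the values were seen, and no test was made of the classes. Of the 93 introns listed higher in EMS27, 56 had their reads on the 3' side, 32 on both sides and 5 on the 5' side. Of the 101 listed higher in rrc1-689, 61 had them on the 3' side, 38 on both sides and 2 on the 5' side. The share depends on the limit: at 90%, 40 of the 93 in EMS27 and 42 of the 101 in rrc1-689 were on the 3' side. With the limit of 80% and at least 10 boundary reads, 49 of 84 in EMS27 and 57 of 96 in rrc1-689 were. Introns that were lower looked different, with 38 of 44 in EMS27 and 34 of 37 in rrc1-689 having reads on both sides, and only 3 and 0 on the 3' side.

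**Figure D1:**
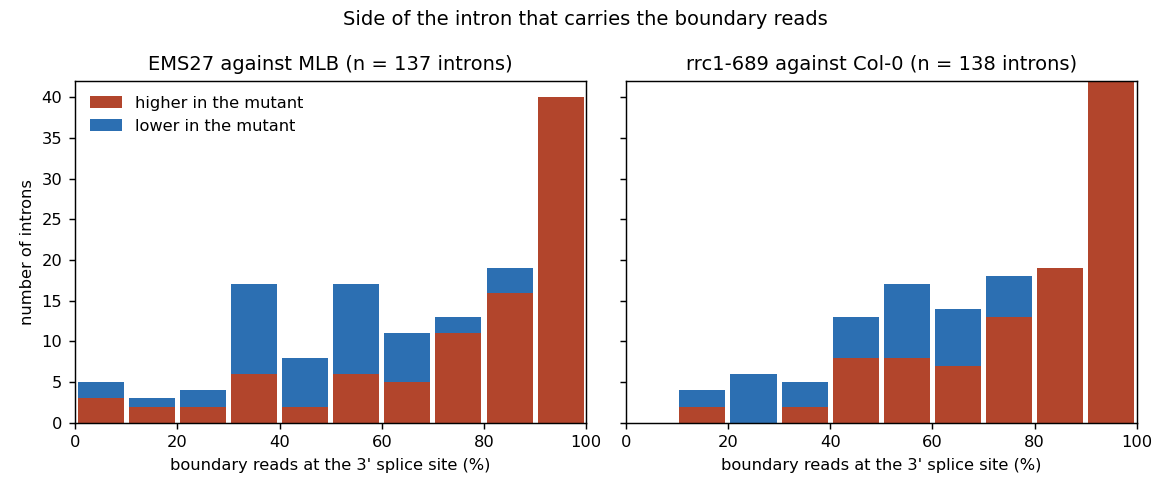
Number of introns (vertical axis) by the percentage of their boundary reads that crossed the 3' boundary (horizontal axis), summed over 6 libraries, for introns listed higher or lower in the mutant. The introns higher in the mutant pile up at the right end, with 56 in EMS27 and 61 in rrc1-689 at 80% or more, while the lower ones lie in the middle.

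The sums of reads give the size of these classes in counts. The classes were set from the same reads and by listed direction, so the sums are no separate evidence for the split. In the 56 introns of EMS27 with reads on the 3' side, reads at the 3' boundary went from 288 in MLB to 1649 in EMS27. Reads at the 5' boundary of the same introns went from 66 to 96, and exclusion reads from 7651 to 5197. In the 38 introns of EMS27 that were lower and had reads on both sides, 5' boundary reads went from 1090 to 234 and 3' boundary reads from 1008 to 305. These sums are led by introns of highly expressed genes and carry no error.

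Each boundary was then set against the exclusion reads alone, so that the level at either end could be tested in the same way over the 266 intron events of each table. At the 3' boundary, limma called 73 of the 137 introns higher in EMS27, where 46.6% of all intron events were. At the 5' boundary it called 20 higher, where 11.3% of all intron events were. In rrc1-689, 85 of the 138 were called higher at the 3' boundary and 19 at the 5' boundary, against 56.0% and 13.9% of all intron events. For introns called lower the ends were closer, with 22 at the 3' boundary and 29 at the 5' boundary in EMS27, against 24.1% and 26.3% of all intron events. In rrc1-689, 24 were lower at the 3' boundary and 26 at the 5' boundary, against 22.6% and 22.9%. Among introns listed higher in EMS27, the median level at the 3' boundary was 1.89% in MLB and 18.8% in EMS27. The median level at the 5' boundary of those introns was 0.593% and 3.42%, and 54 of the 93 were under 5% there in both groups. Among introns listed higher in rrc1-689, the medians were 3.36% in Col-0 and 19.2% in rrc1-689 at the 3' boundary, and 0.889% and 2.13% at the 5' boundary, where 59 of the 101 were under 5% in both groups.

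**Figure D2:**
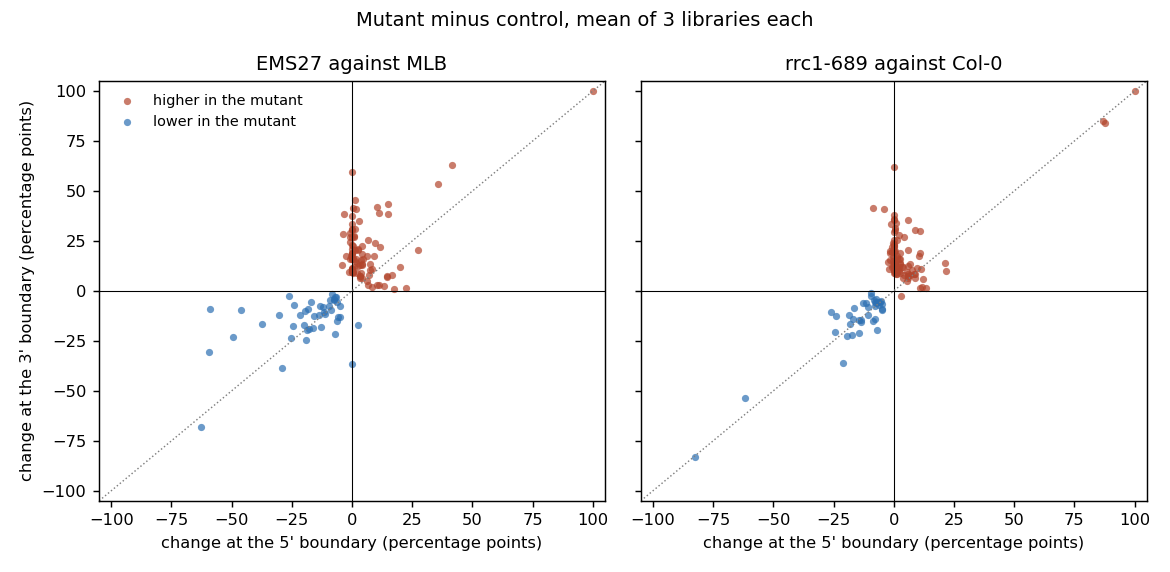
Change in level at the 5' boundary (horizontal axis) and at the 3' boundary (vertical axis) for each intron, as mutant minus control in percentage points of the mean of 3 libraries; the dotted line marks equal change. Introns higher in the mutant lie mostly along the vertical axis, while the introns that go near 100% and most of the lower ones lie near the line.

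The same read pattern was seen in other introns of these tables, so it was not particular to the introns described here. Introns split by an annotated exon had 36 of 53 higher events on the 3' side in EMS27 and 30 of 49 in rrc1-689. Annotated retained introns had 5 of 11 and 6 of 24 higher events on the 3' side. They also differed in direction, since 22.4% of the annotated retained introns were listed higher in EMS27, against 67.9% of the introns described here, and 47.1% against 73.2% in rrc1-689. These are descriptions of listed events and were not tested.

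Bases before the annotated acceptor are shown for 3 introns with 3' side reads, chosen after the values were seen for their large change at the 3' boundary. Each line ends at the last base of the intron, covers its last 120 bases or the whole intron where that is shorter, and has every AG in capitals. The final AG is the annotated acceptor, and whether any other AG was used was not tested.
AT3G21480 intron I006: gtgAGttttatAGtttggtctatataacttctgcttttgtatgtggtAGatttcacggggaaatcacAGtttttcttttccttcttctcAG
INT1 intron I003: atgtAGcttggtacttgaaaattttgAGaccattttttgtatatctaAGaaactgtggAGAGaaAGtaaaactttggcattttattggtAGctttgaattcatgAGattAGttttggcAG
CPK32 intron I007: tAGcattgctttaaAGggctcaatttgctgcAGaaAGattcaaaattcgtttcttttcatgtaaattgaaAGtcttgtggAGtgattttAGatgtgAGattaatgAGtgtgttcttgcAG

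AT3G21480 I006 lies at chr3:7571642-7571732, INT1 I003 at chr2:18001993-18002793 and CPK32 I007 at chr3:21298580-21298823. In AT3G21480, annotated as a DNA repair protein with a BRCT domain, no library of Col-0 or rrc1-689 had a read at the 5' boundary. Its 3' boundary had 9, 20 and 16 reads in Col-0 and 80, 74 and 99 in rrc1-689. Exclusion reads numbered 9, 25 and 29 in Col-0 and 23, 17 and 17 in rrc1-689. Its level, which pools the reads of both ends, was 33.3, 28.6 and 21.6% in Col-0 and 63.5, 68.5 and 74.4% in rrc1-689 (limma adjusted p = 0.0020), with no overlap between the groups.

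The largest rise in EMS27 was complete. AT1G69030 I004, in a gene for a BSD domain protein, had no boundary read among the 181 reads of the 3 MLB libraries, which allows up to 1.66% of reads. In EMS27 it had 17, 12 and 14 reads at the 5' boundary, 14, 16 and 14 at the 3' boundary and no exclusion read among 87, which allows up to 3.45% of reads. These limits cover counting error only. Its level was therefore 0% in each MLB library and 100% in each EMS27 library (limma adjusted p = 7.9e-07). CID12 I003, in a gene for a protein that binds poly(A)-binding protein, had levels of 0, 0.552 and 0% in MLB and 49.4, 52.2 and 64.3% in EMS27 (limma adjusted p = 0.00011). Both boundaries of CID12 carried reads, 31 at the 5' end and 68 at the 3' end over the 3 EMS27 libraries. Neither intron was listed for rrc1-689.

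Among introns with a mean of at least 20 reads per library, the other rises of EMS27 among the 8 largest were between 20 and 40% in the mutant. Introns with fewer reads were not ranked, though AT2G27420 I001, for example, rose from a mean of 15.8% in MLB to 71.4% in EMS27. CPK32 I007, in a calcium-dependent protein kinase, had levels of 0, 2.97 and 4.48% in MLB and 36.2, 29 and 35.9% in EMS27 (limma adjusted p = 0.0035). AT1G05805 I001, the first intron of a basic helix-loop-helix transcription factor gene, had 7.14, 7.2 and 11.3% in MLB and 42.5, 40 and 36.7% in EMS27 (limma adjusted p = 0.0013). IAA14 I002, in a repressor of auxin responses, had 15.5, 10.7 and 21.3% in MLB and 42.1, 41.4 and 36.1% in EMS27 (limma adjusted p = 0.0078). In all of these the groups did not overlap. AT2G01460 I009 rose from 7.47 ± 2.6% to 33.8 ± 12.7% and AT1G28240 I004 from 1.29 ± 1.25% to 24.1 ± 4.04% (SD, n = 3 each). AT1G31870 I004, in a gene for a splicing factor of the RES complex, had 0, 0 and 3.03% in MLB and 41.9, 9.52 and 17.5% in EMS27, so its EMS27 libraries differed widely although none overlapped MLB (limma adjusted p = 0.0074).

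The largest falls in EMS27, ranked with the same minimum of reads, started from high levels in MLB, as a large fall in percentage points must. alpha-ADR I001, in a gene for alpha-adaptin of the clathrin adaptor, had 48, 64.1 and 72.7% in MLB and 10.1, 7.87 and 9.73% in EMS27 (limma adjusted p = 0.00088), and its boundary reads were at the 5' side. AT1G30590 I011, in a gene for an RNA polymerase I initiation factor, had 48.7, 54.3 and 73.7% in MLB and 21.4, 14.3 and 0% in EMS27 (limma adjusted p = 0.0085). AT4G16670 I005 had 28.8, 27.5 and 42.4% in MLB and 7.89, 11.1 and 6.15% in EMS27 (limma adjusted p = 0.0041). All MLB libraries lay above all EMS27 libraries in these 3 introns. GOX2 I009, in glycolate oxidase of photorespiration, had 100, 65.7 and 100% in MLB and 56.4, 64.9 and 48.6% in EMS27 (limma adjusted p = 0.029), from only 6 exclusion reads in MLB. TRM27 I001 fell from 27.6 ± 10.6% to 5.23 ± 2.19%, AT3G47675 I003 from 26.9 ± 11.2% to 3.67 ± 3.38% and CYP71B20 I001 from 24.7 ± 5.13% to 5.44 ± 4.57% (SD, n = 3 each). SNZ I005, in a gene for an AP2-type repressor of flowering, did not pass the test (limma adjusted p = 0.090): its MLB levels were 100, 4.59 and 5.26%, so 1 library made its mean.

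In rrc1-689, 2 introns lost every exclusion read. AT5G24060 I001, in a gene for a pentatricopeptide repeat protein, had no boundary read among 360 reads in Col-0 (up to 0.833% of reads) and no exclusion read among 36 in rrc1-689 (up to 8.33% of reads). Its level was 0% in each Col-0 library and 100% in each rrc1-689 library (limma adjusted p = 8.2e-07). This intron lies within 1 Mb of RRC1 on chromosome 5, as did 2 other introns of the rrc1-689 table and 2 of the EMS27 table. ALY4 I006 had levels of 19.7, 12.6 and 10.8% in Col-0 and 100% in each rrc1-689 library, with 70 reads at the 5' boundary, 95 at the 3' boundary and no exclusion read among 165 (limma adjusted p = 1.4e-05). AT3G55920 I007, in a cyclophilin-type prolyl isomerase gene, had 0% in all Col-0 libraries and 93.8, 90.7 and 73.9% in rrc1-689 (limma adjusted p = 7.9e-05). All 3 had reads on both boundaries, and none was listed for EMS27.

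Further rises in rrc1-689 had their reads mostly at the 3' boundary. INT1 I003, in a gene for a vacuolar inositol transporter, had 9.09, 11.5 and 16.7% in Col-0 and 31.8, 51.4 and 38.2% in rrc1-689 (limma adjusted p = 0.0044). PUB4 I001, in a U-box ubiquitin ligase gene, had 1.96, 4.95 and 0% in Col-0 and 14.3, 29 and 31.4% in rrc1-689 (limma adjusted p = 0.0064). CPK26 I001 had 5, 1.69 and 1.89% in Col-0 and 20, 31 and 30% in rrc1-689 (limma adjusted p = 0.0017). This intron, the last of its gene, overlaps an exon of another locus, and whether any of its reads belong there was not tested. CPK32 I007 rose here too, from 6.78 ± 3.17% to 29.5 ± 12.8% (SD, n = 3 each, limma adjusted p = 0.0067).

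Several of the largest falls in rrc1-689, ranked with the same minimum of reads, ended near 0. EDM2 I010, in a gene for a regulator of heterochromatin and disease resistance, had 34.7, 20 and 40.9% in Col-0 and 0, 6.12 and 0% in rrc1-689 (limma adjusted p = 0.0029). AT3G44630 I005, in a disease resistance gene of the TIR-NBS-LRR class, had 15.8, 25 and 5.66% in Col-0 and no boundary read among 84 in rrc1-689, which allows up to 3.57% of reads (limma adjusted p = 0.0016). CSLA14 I006, in a cellulose synthase-like gene, had 26.2, 31.7 and 18.4% in Col-0 and 5.88, 4.76 and 5.88% in rrc1-689 (limma adjusted p = 0.0025). In each of these, every rrc1-689 library was under every Col-0 library. AT2G39580 I013 fell from 19.2 ± 12.6% to 0.483 ± 0.837%, GSTU18 I001 from 20.8 ± 0.413% to 5.19 ± 2.38%, CYP71B20 I001 from 27.7 ± 4.67% to 9.62 ± 1.96% and AT3G47675 I003 from 26.1 ± 7.61% to 6.11 ± 7.08% (SD, n = 3 each). APC7 I004 had 50, 53.5 and 24.5% in Col-0 and 24.4, 26.3 and 7.14% in rrc1-689, with overlapping groups, and did not pass the test (limma adjusted p = 0.061).

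**Figure D3:**
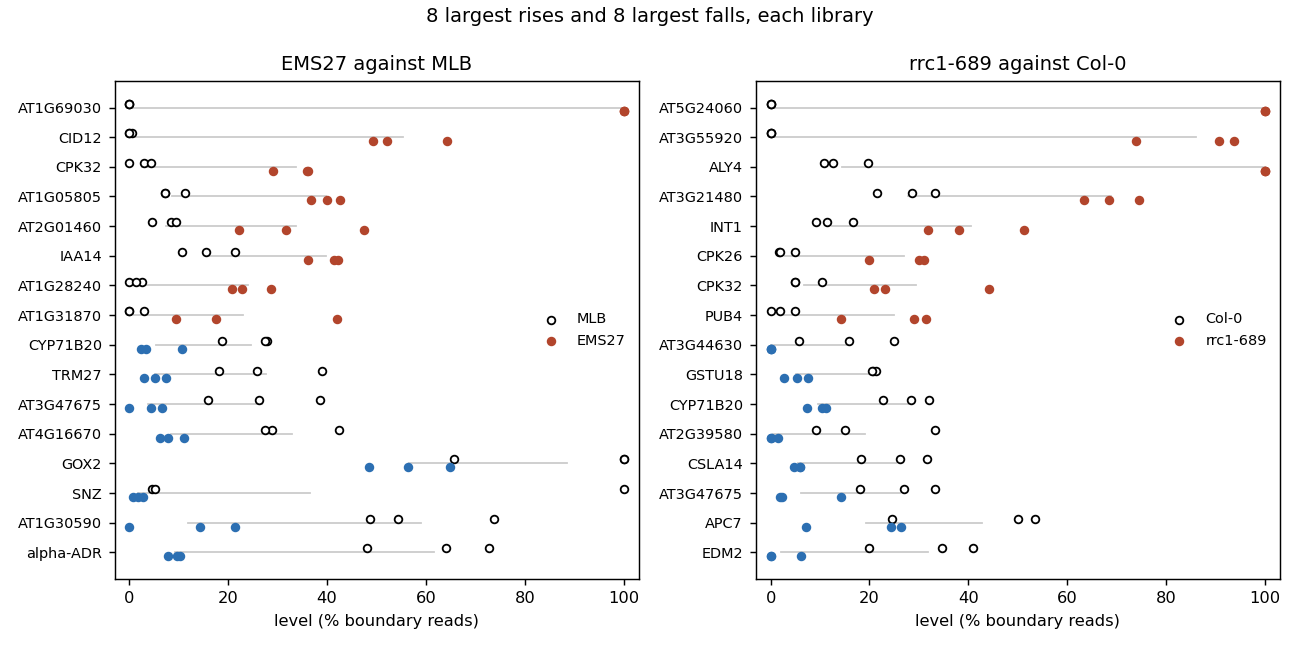
Level (share of boundary reads, in percent) of each library for the 8 introns with the largest rise and the 8 with the largest fall in each comparison, among introns with a mean of at least 20 reads per library. Open circles are the control libraries, filled circles the mutant libraries and grey lines join the means; circles at 0 and 100% overlie each other. Only AT1G69030, AT5G24060 and ALY4 reach 100% in all 3 mutant libraries.

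The 45 introns listed for both mutants moved the same way in both, 34 higher and 11 lower. Both comparisons have their own controls, but an intron had to change in each to be counted here. Limma called 30 higher in both and 10 lower in both, or 66.7% and 22.2%, against 66.9% and 25.7% of the 136 events of all kinds in both tables. Across the 45, the differences in level had a Pearson r of 0.932 and a Spearman rho of 0.864, given as a description of introns chosen by these differences. The median absolute difference was 12.8 percentage points in EMS27 and 12.5 in rrc1-689. The side of the reads was also the same in 36 of 45. Reads were on the 3' side in both comparisons for 22 of the 34 higher introns and for 0 of the 11 lower ones, of which 9 had reads on both sides in both.

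The difference between the mutants was tested as an interaction over the 12 libraries. Limma called 0 of the 45 introns at an adjusted p of 0.05, and 0 had an unadjusted p below 0.05 (up to 4 with a library left out, without EMS27 replicate 2), against 2.21% called among the 136 events of all kinds in both tables. The lowest p was that of STY17 I009, in a protein kinase gene, at 0.052 (limma adjusted p = 0.49), with a change 0.99 ± 0.45 (SE) logit units larger in EMS27. Its level went from 2.13 ± 1.72% to 21.2 ± 4.39% in EMS27 and from 3.3 ± 0.943% to 14.6 ± 1.46% in rrc1-689 (SD, n = 3 each). A p above the threshold does not show that the mutants were alike. DRM3 I004, for example, had a difference of 2.1 ± 1.06 (SE) logit units between them.

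**Figure D4:**
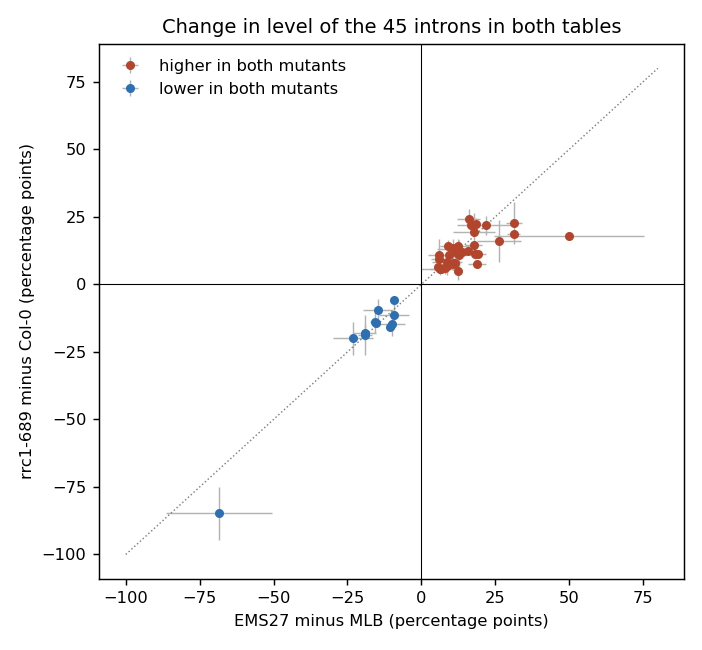
Difference in level (share of boundary reads over both ends) for the 45 introns listed in both tables, as EMS27 minus MLB (horizontal axis) and rrc1-689 minus Col-0 (vertical axis) in percentage points, with standard errors from 3 libraries per group; the dotted line marks equal differences. All 34 higher and all 11 lower introns keep their direction in both.

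The largest shared change was a fall. AT1G67300 I008, in a sugar transporter-like gene of the major facilitator superfamily, had 100, 41.2 and 87.5% in MLB and 8.57, 8.11 and 6.25% in EMS27 (limma adjusted p = 0.0066). In Col-0 it had 71.4, 100 and 100% and in rrc1-689 10, 2.56 and 4.76% (limma adjusted p = 0.0016). Exclusion reads went from 6 to 48 and from 3 to 38, and the controls rest on few reads. LON2 I007, in the Lon protease of peroxisomes, had 13.8, 14.7 and 17.7% in MLB and 0, 0.578 and 0% in EMS27 (limma adjusted p = 0.00046). It had 14, 15.7 and 15.9% in Col-0 and 0, 1.73 and 0.575% in rrc1-689 (limma adjusted p = 0.0033), so both controls had close levels and both mutants had nearly none. The other shared falls called in both were those of TRB2, AT2G39580, AT3G15160, AT3G47675, AT3G55020, GSTU18, CYP71B20 and ABCD2. AT1G58602 I006, in a disease resistance gene, was lower in both means without passing the test (limma adjusted p = 0.11 and 0.099).

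Several shared rises rested on many reads. AT5G06130 I004, in a DnaJ-like chaperone gene, had 3, 0 and 1 reads at the 3' boundary in MLB and 37, 38 and 35 in EMS27. Its 5' boundary had at most 1 read in each of these libraries. In Col-0 and rrc1-689 the 3' boundary had 1 read in every control library and 47, 44 and 44 in the mutant. The level was 0.635 ± 0.804% in MLB, 16.5 ± 2.03% in EMS27, 0.555 ± 0.538% in Col-0 and 13.1 ± 2.34% in rrc1-689 (SD, n = 3 each). ACR12 I011, in a gene for an ACT domain protein, had 5.88, 6.74 and 5.38% in MLB and 26.5, 25.2 and 21.5% in EMS27 (limma adjusted p = 0.0018). It had 5.03, 5.09 and 5.09% in Col-0 and 29.8, 23.6 and 29.3% in rrc1-689 (limma adjusted p = 0.00089). AT4G39050 I011, in a kinesin motor gene, went from 0.786 ± 0.683% to 14.5 ± 3.65% and from 0.28 ± 0.485% to 12.4 ± 1.83% (SD, n = 3 each). AT4G10080 I001 went from 4.48 ± 1.23% to 21.4 ± 3.04% and from 3.6 ± 1.17% to 25.5 ± 5.2%. KEA3 I004, in a potassium antiporter of the thylakoid, went from 1.19 ± 1.65% to 10.5 ± 4.47% and from 0.824 ± 0.714% to 11.7 ± 2%.

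Other shared introns had few reads or missed the test in 1 comparison. RCD1 I007, in a gene for a protein that binds transcription factors under oxidative stress, had 34.4 ± 2.14% in MLB and 52.4 ± 1.76% in EMS27 (limma adjusted p = 0.023), and 31.7 ± 1.69% in Col-0 and 43 ± 3.01% in rrc1-689 (limma adjusted p = 0.062). PDAT I005 was called in neither, and AT3G63070 I004 passed in EMS27 and AT5G05140 I004 in rrc1-689. The call of emb2410 I014 in EMS27 rests on 1 boundary read and on a drop from 44 to 7 exclusion reads. In all, 9 calls in EMS27 and 6 in rrc1-689 rest on under 10 boundary reads in 6 libraries. The remaining shared rises, called in both, were in AT1G04910, ATX2, AT1G18660, VPS35B, AT1G80910, AT2G01460, PKL, DRM3, UKL2, AT4G13495, AT4G33920, UNE18, ELF9 and AT5G17440, besides those in the gene groups below.

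Genes for RNA processing, grouped by words in their annotated products, gave 9 introns in EMS27, all called higher, and 11 in rrc1-689, of which 8 were called higher and 3 lower. Over all listed events, 58.2% were called higher and 31.4% lower in EMS27, and 63.4% and 25.3% in rrc1-689. The median difference was 12.3 percentage points in EMS27 and 7.78 in rrc1-689, against 7.49 and 7.53 over all the introns described here, rises and falls together. As all 9 in EMS27 rose, the like value there is 11.1, the median of the introns listed higher in EMS27. No difference from these medians was tested. AT1G31870 I004, of the RES complex, had 1.2, 0 and 0% in Col-0 and 24.5, 15.4 and 27% in rrc1-689 (limma adjusted p = 0.00089), with all but 1 read of its boundaries in the mutant, at the 3' end. AT4G32440 I002, in a Tudor-like RNA-binding protein gene, had 2.22, 1.05 and 1.54% in Col-0 and 13.2, 16 and 14.7% in rrc1-689 (limma adjusted p = 0.0010). Both also rose in EMS27. RS2Z32 I004, in an SR splicing factor, fell from 12.5, 12.4 and 11.7% in Col-0 to 5.48, 6.76 and 4.85% in rrc1-689 (limma adjusted p = 0.011). AT1G66260 I005 and AT3G21215 I008, both in genes with RNA recognition motifs, fell as well, from 35.9 ± 4.56% to 21.7 ± 3.81% and from 6.05 ± 1.89% to 0.344 ± 0.595% (SD, n = 3 each).

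The rest of the RNA group rose. AT1G13190 I001 had 54.7, 54.3 and 62.2% in MLB and 75, 79.8 and 70.8% in EMS27 (limma adjusted p = 0.024), with nearly all boundary reads at its 5' end. AT1G22330 I005 also had its reads at the 5' end and rose from 8.42 ± 0.685% to 19.8 ± 1.73% in EMS27 and from 9.17 ± 2.71% to 17 ± 3.8% in rrc1-689 (SD, n = 3 each). AT1G22330 I001 rose from 8.61 ± 3.29% to 18.3 ± 2.35% in EMS27, and AT1G73490 I004 from 41.9 ± 1.29% to 63.5 ± 9.79%. AT3G20010 I008, in a SNF2 helicase gene, rose from 1.33 ± 2.31% to 31.3 ± 16.4% in EMS27. In rrc1-689, RBP47A I001 rose from 11.5 ± 3.63% to 22 ± 1.75%, the RNA helicase gene AT3G58510 I005 from 3.87 ± 2.71% to 18.7 ± 9.7% and AT5G65260 I003 from 2.58 ± 0.897% to 9.42 ± 2.08%. AT1G76460 I003 rose in both. FRA3 I008 also rose in both, but encodes an inositol polyphosphate phosphatase and fell in this group through the word exonuclease in its family name. The splicing factor gene AT5G17440, related to LUC7 of the U1 particle, and ELF9, an RNA-binding repressor of flowering, were not caught by the words and are given among the shared rises. The words also missed introns that were lower in EMS27, in BTR1L, a gene for a protein binding a viral RNA, and in ECT5, a gene of the YTH family of RNA-binding proteins. BTR1L I005 fell from 25.9 ± 3.91% to 14.7 ± 3.75% (limma adjusted p = 0.038) and ECT5 I008 from 17.2 ± 6.51% to 4.10 ± 2.74% (limma adjusted p = 0.0080; SD, n = 3 each). AT2G02570 I009, annotated as RNA binding, was lower in mean without passing the test. These were named after their values were seen, so the counts of the group depend on its words.

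The light and clock words caught GRP7 and BBX27. GRP7 I002, in a clock-regulated RNA-binding protein gene, had the most reads of all, with levels of 11.5, 8.59 and 9.87% in MLB and 15.7, 15.8 and 14.9% in EMS27. The groups did not overlap, but the difference did not pass the test (limma adjusted p = 0.083). BBX27 I002, in a B-box zinc finger gene, had 3.35, 6.57 and 6.74% in MLB and 14.1, 17.2 and 17.6% in EMS27 (limma adjusted p = 0.0092). It rose from 6.44 ± 3.67% in Col-0 to 14 ± 0.991% in rrc1-689 (SD, n = 3 each, limma adjusted p = 0.031).

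Genes for kinases and phosphatases gave 15 introns in EMS27, 13 called higher and 2 lower, and 16 in rrc1-689, 14 called higher and 2 lower. These counts and those of the groups that follow stand beside 58.2% higher and 31.4% lower in EMS27, and 63.4% and 25.3% in rrc1-689, over all listed events. No difference from these shares was tested. CPK32, CPK26, STY17, UKL2, FRA3 and the phosphatase 2C gene AT4G33920 rose in both mutants. Genes for transcription and chromatin gave 14 and 13 introns, with 8 called higher and 4 lower in EMS27 and 8 higher and 3 lower in rrc1-689. PKL I019, in a CHD3 chromatin remodeller, rose from 1.72 ± 1.67% to 13.9 ± 4.83% in EMS27 and from 2 ± 1.02% to 13.7 ± 3.21% in rrc1-689 (SD, n = 3 each), with no read at its 5' boundary in any library. ATX2 I010, in a trithorax-like gene, had no boundary read in MLB or Col-0 and 6 and 10 reads in the mutants. TRB2 I001, in a telomere repeat binding protein gene, went the other way, from 15.2 ± 7.48% in Col-0 to 0.457 ± 0.791% in rrc1-689. Transport genes gave 3 introns called higher and 4 lower in EMS27 and 5 higher and 2 lower in rrc1-689. Protein breakdown gave 2 higher and 1 lower in EMS27 and 6 higher and 1 lower in rrc1-689. Translation gave 1 higher and 1 lower in EMS27 and 2 higher in rrc1-689, and the plastid words 1 higher in EMS27 and 1 lower in rrc1-689. A locus can stand in more than 1 group.

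In 10 loci, 2 introns of the same gene were listed. They did not always move together. In SEC5A, a gene of the exocyst, 1 intron was called lower and 1 higher in EMS27, and AT3G61420 likewise had 1 of each in rrc1-689. In F2KP, the fructose bisphosphate regulating enzyme, both were called higher in EMS27. These loci were chosen after their values were seen.

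The introns were long for Arabidopsis, and those higher in the mutants were longer than those lower, as in these tables at large. Their median length was 225 bases, against 102 over the 136308 introns of the annotation, and 52.2% were of at least 200 bases, against 22.5%. The annotation includes genes too lowly expressed to be listed, and length was not tested against it. Listing also required a change in the reads within the intron, and whether this condition favours longer introns was not tested. Introns listed higher had a median of 265.5 bases and introns listed lower 138. All listed events had medians of 253 bases where higher and 122 where lower in EMS27, and of 197 and 126 in rrc1-689, and introns split by an annotated exon had 300 and 299 where higher. Among the 88 higher introns with reads on the 3' side the median was 323.5 bases, and 72.7% were of at least 200 bases. Among the 59 higher introns with reads on both sides it was 187 bases, and among the 61 lower introns with reads on both sides 136.

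**Figure D5:**
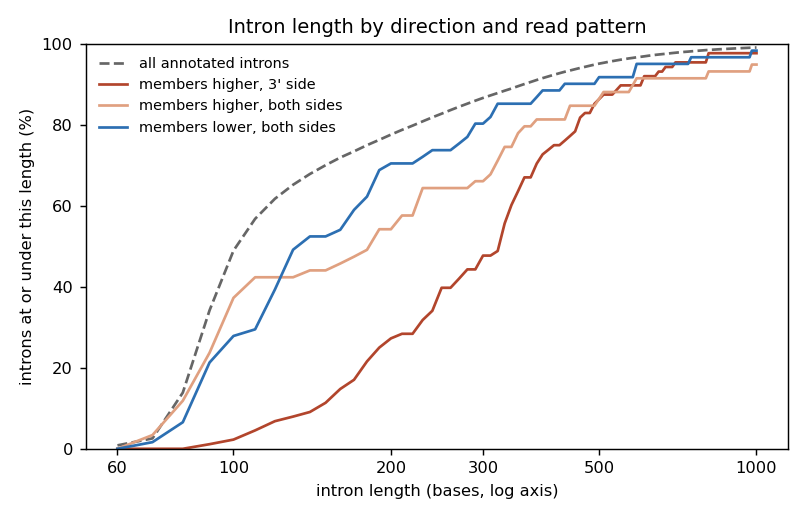
Percentage of introns (vertical axis) at or under a given length in bases (horizontal axis, log scale) for all annotated introns, the introns higher in the mutant with reads on the 3' side or on both sides, and the introns lower in the mutant with reads on both sides. The line for 3' side reads stays furthest to the right up to 480 bases.

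Other sequence features were closer to those of all introns. GT and AG ended 227 of the 230 introns and GC and AG the other 3. The median GC content was 34.5% against 32.8% in the annotation, and the median U content 38.7% against 40.6%. Pyrimidines made up a median of 60% of the 30 bases that end 3 bases before the intron's end, both in these introns and in the annotation. The base before the final AG was C in 66.5% of the introns and in 63.0% of the annotation, and in 50.8% of the lower introns with reads on both sides. The donor letters GTAAGT stood in 12.6% and 9.08%. Of the introns, 216 lay between coding exons, 6 in a 5' UTR and 6 in a 3' UTR, and 38 were the first and 40 the last intron of their gene. The length was divisible by 3 in 85 of the 230 and in 33.2% of the annotation.

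Gene expression was known only from the authors' comparisons of MLB with EMS27 and, in MLB, of red light with darkness, and not for rrc1-689. Of the 131 loci with an intron described here in EMS27, the authors' deposited table listed 14 as changed, 9 lower and 5 higher in EMS27. In the 5 genes listed higher in EMS27, all 6 introns were listed higher, and in the 9 genes listed lower, 6 of 10 introns were. By the authors' deposited table GRP7 was higher in EMS27 by a log2 fold change of 1.14, AT1G05805 by 1.00 and AT4G39050 by 1.06. The authors' deposited table gave a log2 fold change of -1.24 in EMS27 for AT3G47675, -1.07 for ABCD2 and -1.58 for AT1G58602, whose introns had lower mean levels. It also gave -1.62 for AT2G27420 and -1.42 for FMO GS-OX2, whose introns were among the 6 listed higher. The remaining 117 loci had no row in that table. Of the 131 loci, the authors' deposited table for red over dark in MLB listed 17 as higher in red light and 4 as lower. These gene counts stand without the share over all genes. Whether these loci were listed more or less often than others was not tested.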

How the data were processed

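Event tables of 12 red light libraries in 4 groups were used. Reads were aligned with TopHat2 2.1.1 to TAIR10, per the submitters' processing notes, and events were called with ASpli 1.9, per the file headers; strand and other settings are not given in the sources used here. Per event the authors deposited raw read counts per boundary and junction, a fraction per group from summed reads, and a log2 fold change with a p-value and FDR per intron. Gene fold changes came from the tables that set MLB against EMS27 and, within MLB, red light against darkness. The members, gene groups, tests and limits were chosen with earlier results of these data known.

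From the deposited counts, the level was computed per library as boundary reads over boundary reads plus doubled exclusion reads, and it recovered all deposited fractions within 0.0001. The boundary columns run in genomic order, shown by AT1G17990 and AT1G18020, near-identical inverted copies with swapped columns, so 5' and 3' were assigned by strand. Levels were tested on the logit scale with limma 3.58.1 (R 4.3.3) after adding 0.5 to both sums, using the 2 groups compared, with Benjamini-Hochberg adjustment over all listed events and a threshold of 0.05. The fit was also run on simulated data. The simulated control levels did not go as low as those of many introns here, so that run does not cover levels near 0. Permutation of 3 libraries against 3 cannot go below p = 0.1.

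Named were, per comparison, the 8 largest rises and falls with a mean of at least 20 reads, introns in both tables, and the RNA processing and light and clock groups. Alternatives were added reads of 0.1 or 2, a read minimum, weights, edgeR 4.0.16, a block, single boundaries and left-out libraries. Symbols and sequences came from RefSeq TAIR10.1, and 119 of 230 introns had a gene symbol.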

Additional observations from a re-analysis of the deposited data

How the results depend on the processing

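The direction of the named introns held under every alternative run but 1: of 1910 values for 121 named intron and comparison pairs, only ACR12 I011 in EMS27 turned, to -0.20 logit units at the 5' boundary alone, which is also its second boundary. In the others, 162 calls were lost and 35 gained. The count of introns called moved by over 1.5 times only with single boundaries, which were tested over intron events alone. The first boundary in genomic order gave 76 calls in EMS27 (49 higher) and 74 in rrc1-689 (49 higher), and the second gave 70 (43 higher) and 80 (54 higher). The 5' boundary, chosen after seeing the data, gave 49 (20 higher) and 45 (19 higher), and the 3' boundary left 22 introns lower in EMS27. Leaving out 1 library gave 104 to 108 calls in EMS27 and 102 to 117 in rrc1-689. Without the 6 introns whose sequence recurs in the annotation, 121 and 120 calls were left. The interaction stayed at 0 of 45 at the adjusted threshold in every fit, but at an unadjusted p below 0.05 there was 1 intron with 2 added and 0 to 4 with a library left out. The lowest limma adjusted p was 0.093, for STY17 without MLB replicate 2. Library numbers did not pair the samples, with correlations of same-numbered libraries from -0.078 to 0.11; with the replicate block the calls were 115 in EMS27 and 121 in rrc1-689. Depth limits introns of few reads, and which setting is nearer the truth was not tested.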
